A study of Mus musculus with 8 samples.

Results

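B16F10 libraries labelled CypD OE and kept at 1% O2 were set against WT B16F10 libraries kept at 21% O2, to ask how far a transcriptional response to low oxygen was present. B16F10 is a mouse melanoma line, and CypD is cyclophilin D, the product of *Ppif*. Genes with at least 1 TPM (the share of transcripts on a scale that sums to the same total in each library, a relative abundance corrected for transcript length) in at least 2 of these 4 libraries were described, which left 12556 of the 55414 genes in the table. Of the 12556 genes, 11447 reached 1 TPM in all 4 libraries, 456 in 3, 271 in 1 library of each group, 196 in both CypD OE libraries only and 186 in both WT libraries only. Protein-coding genes made up 10862 of them.

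The series holds 8 RNA-seq libraries of B16F10 cells after 24 h in culture, 2 in each of 4 groups. WT cells carried no vector and were kept at 21% O2. CypD OE cells had been transfected with a pcDNA plasmid encoding CypD and selected as stable clones with G418, and were kept at 1% O2. Control cells were stable transfectants of the empty pcDNA vector, also kept at 1% O2, and serve here as the reference for that oxygen level. CypD KO libraries at 21% O2 entered only the shared estimate of spread. CypD OE cells at 21% O2 and WT cells at 1% O2 were not analysed here, so in CypD OE against WT the effects of oxygen, plasmid, selection and clone cannot be told apart. Whether the 2 libraries of a group came from separate cultures is not stated, and p-values therefore measure the spread between these libraries, which may be technical.

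Cells sense oxygen through prolyl hydroxylases of the EGLN (PHD) family, which use oxygen to hydroxylate the HIFα subunits. Hydroxylated HIFα is bound by the VHL ubiquitin ligase and degraded. When oxygen is short, HIFα is stabilised, pairs with ARNT and binds hypoxia response elements, raising genes of glycolysis, glucose and lactate transport, mitophagy, angiogenesis and pH control, and also *Egln1* and *Egln3* themselves. Since HIF1α is controlled mainly as a protein, the level of *Hif1a* mRNA is not a readout of the response.

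The core of a hypoxia response element was searched as ACGTG or GCGTG on both strands, so that a palindromic CACGTG counts on each strand. Promoter windows of 300 bases, from 250 before to 50 after the RefSeq start (build GRCm38.p6), were found for 9104 of the tested gene symbols. The core was present in 36 of the 42 HIF targets outside glycolysis that had a window (85.7%), in 23 of 26 genes of glycolysis and glucose or lactate transport (88.5%), and in 69.6% of all tested genes with a window. Windows of 3 such genes that hold the core are shown because their transcripts were among those that differed most between Control and WT. The same 3 genes differed little between CypD OE and WT, which is an observation and not a reason for their choice. Each runs 5′ to 3′ on the strand of its gene and ends at the first base before the annotated gene, and capitals mark the core on either strand. By an exact match in GRCm39, the *Bnip3* sequence lies at chr7:138511254-138511485 (minus strand), the *Egln3* sequence at chr12:54250674-54250910 (minus strand) and the *Hk2* sequence at chr6:82751470-82751685 (minus strand).
Bnip3: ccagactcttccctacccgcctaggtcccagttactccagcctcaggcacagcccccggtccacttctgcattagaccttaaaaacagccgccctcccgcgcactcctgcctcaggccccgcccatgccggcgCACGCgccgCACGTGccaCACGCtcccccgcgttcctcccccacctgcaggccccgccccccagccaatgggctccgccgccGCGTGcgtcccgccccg
Egln3: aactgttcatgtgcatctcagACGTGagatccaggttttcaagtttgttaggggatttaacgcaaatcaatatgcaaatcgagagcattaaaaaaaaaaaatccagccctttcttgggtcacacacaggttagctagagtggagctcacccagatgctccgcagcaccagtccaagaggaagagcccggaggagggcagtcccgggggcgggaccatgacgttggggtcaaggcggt
Hk2: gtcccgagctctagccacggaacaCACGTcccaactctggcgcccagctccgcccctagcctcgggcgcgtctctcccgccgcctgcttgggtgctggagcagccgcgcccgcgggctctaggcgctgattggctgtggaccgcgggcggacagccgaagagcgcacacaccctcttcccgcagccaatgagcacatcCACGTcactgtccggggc

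*Ppif* (ENSMUSG00000021868, chromosome 14, 25694522 to 25707332, GRCm39) was measured first because it checks the labels. WT held 50.7 and 49.99 TPM, CypD OE by its label 50.3 and 49.3 TPM, Control 44.6 and 42.3 TPM, and CypD KO 10.4 and 12.1 TPM. WT and CypD OE overlapped, and their log2 fold change was -0.02 (95% interval -0.19 to 0.16, limma adjusted p = 0.894). The *Ppif* transcript was thus not measurably raised in the libraries labelled CypD OE, which are called so only by their label. The study's methods name the insert of the plasmid CypD (*Ppif*) and state that clones were checked for CypD protein by western blot, which was not analysed here.

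Across all genes tested, 1943 were higher in CypD OE than in WT (15.5%) and 1905 were lower (15.2%), by limma at an adjusted p under 0.05. Most differences were small. Of the called genes, 136 were higher and 154 lower by more than 1 on the log2 scale, and the median log2 fold change of all tested genes was 0.01. Leaving out CypD OE replicate 1 left 1133 genes higher, leaving out CypD OE replicate 2 left 1227 higher and 1202 lower, and leaving out WT replicate 1 left 1254 higher and 1258 lower. Between Control and WT, 1615 of the same genes were higher in Control (12.9%) and 1681 lower (13.4%). Between CypD OE and Control, 2610 were higher in CypD OE (20.8%) and 2408 lower (19.2%). These 3 comparisons share libraries, so each is given by its own values.

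**Figure D1:**
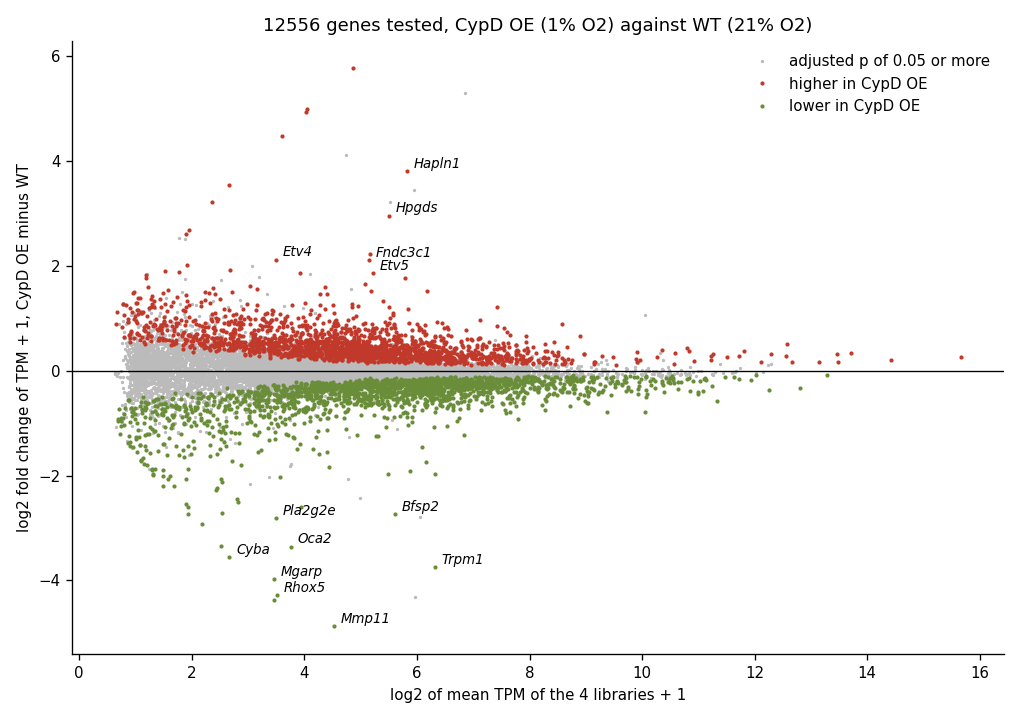
The log2 fold change of TPM + 1 in CypD OE minus WT (y axis) is plotted against the log2 mean TPM + 1 of the 4 libraries (x axis) for the 12556 genes tested, with genes at an adjusted p under 0.05 in red (1943 higher) and green (1905 lower). Protein-coding genes with the largest differences are named, from *Mmp11* at -4.88 to *Hapln1* at 3.80.

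By their median, HIF target genes were close to their WT level in CypD OE, and the share called lower was above that of all tested genes. Of 51 tested HIF targets outside glycolysis, 7 were higher than in WT (13.7%), 15 were lower (29.4%) and 29 did not pass the test, with a median log2 fold change of -0.01 beside 0.01 over all tested genes. In Control against WT the same 51 genes gave 44 higher and 1 lower, with a median of 1.01 beside 0.00 over all genes. In CypD OE against Control 4 were higher and 42 lower, with a median of -1.07. Among all tested genes 12.9% were higher and 13.4% lower in Control against WT, and 20.8% and 19.2% in CypD OE against Control. The 95% interval of the CypD OE difference from WT lay within 1 of 0 for 47 of the 51 genes (92.2%, against 88.1% of all tested genes). The count of 7 higher was 4 without WT replicate 1 and 2 without CypD OE replicate 2.

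*Bnip3*, a mitophagy receptor of the outer mitochondrial membrane, gave 14.4 and 11.1 TPM in WT, 13.6 and 12.5 TPM in CypD OE, and 311 and 307 TPM in Control. Both CypD OE libraries lay between those of WT, and the log2 fold change was 0.04 (95% interval -0.21 to 0.29, adjusted p = 0.806), beside 4.51 for Control minus WT. *Egln1*, the main prolyl hydroxylase that marks HIFα for degradation, gave 22.1 and 21.9 TPM in WT, 21.2 and 22.4 TPM in CypD OE, and 102 and 99.3 TPM in Control. CypD OE and WT overlapped, with a log2 fold change of -0.01 (95% interval -0.13 to 0.10, adjusted p = 0.879). *Egln3*, another hydroxylase of the same feedback, was low in WT at 1.35 and 1.14 TPM and in CypD OE at 1.22 and 0.70 TPM, and stood at 8.06 and 7.06 TPM in Control. Its CypD OE difference from WT was -0.21 (95% interval -0.61 to 0.20, adjusted p = 0.402).

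*Vegfa*, the angiogenic growth factor, gave 14.0 and 12.6 TPM in WT, 14.9 and 15.1 TPM in CypD OE, and 58.8 and 58.3 TPM in Control. The CypD OE libraries were slightly above those of WT without overlap, but the difference of 0.16 (95% interval 0.02 to 0.31) did not pass the test (adjusted p = 0.0853). *Ak4*, an adenylate kinase of mitochondria, gave 8.89 and 8.96 TPM in WT, 10.01 and 11.6 TPM in CypD OE, and 81.5 and 76.2 TPM in Control. It too was above WT in both CypD OE libraries, by 0.24 (95% interval 0.05 to 0.44, adjusted p = 0.0652). *Car9*, a carbonic anhydrase that regulates pH outside the cell, gave 3.11 and 2.07 TPM in WT, 1.74 and 2.43 TPM in CypD OE, and 16.3 and 14.5 TPM in Control. *Fam162a*, a mitochondrial HIF target, was at 114 and 93.0 TPM in WT, 90.9 and 92.9 TPM in CypD OE, and 674 and 697 TPM in Control. For neither *Car9* nor *Fam162a* did CypD OE differ from WT by the test (adjusted p = 0.416 and 0.195).

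**Figure D2:**
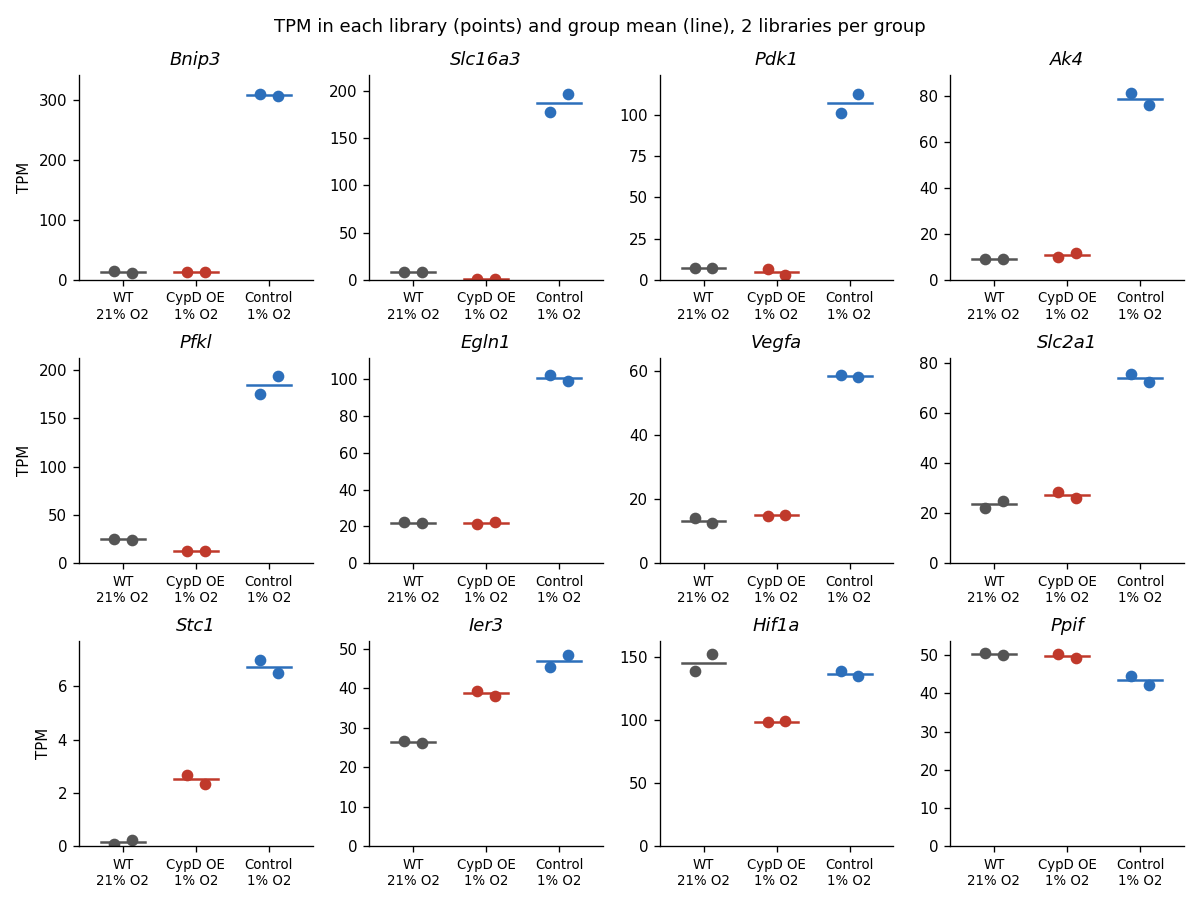
TPM (y axis, linear and starting at 0) is shown for 12 genes in each library (points) with the group mean (line) for WT at 21% O2, CypD OE at 1% O2 and Control at 1% O2. *Bnip3* and *Egln1* in CypD OE overlap WT, and *Vegfa* in CypD OE lies slightly above both WT libraries. Control reaches 307 to 311 TPM for *Bnip3*. *Stc1* and *Ier3* in CypD OE lie between WT and Control.

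Of the HIF targets, 7 were called higher in CypD OE than in WT (13.7%, beside 15.5% over all tested genes). *Stc1*, the secreted glycoprotein stanniocalcin, gave 0.09 and 0.22 TPM in WT, 2.67 and 2.35 TPM in CypD OE, and 6.98 and 6.48 TPM in Control. CypD OE was above both WT libraries and below both Control libraries, with a log2 fold change of 1.60 over WT. *Stc1* entered the tested genes through its CypD OE level alone, so that it had to differ from WT, and these values are a description. *Ier3*, an immediate early gene that also answers to growth signals, gave 26.8 and 26.2 TPM in WT, 39.3 and 38.1 TPM in CypD OE, and 45.5 and 48.4 TPM in Control, and rose by 0.53 (adjusted p = 0.000507). The remaining 5 genes called higher did not keep the call when single libraries were left out. *Klf6* (0.27) lost it without WT replicate 1 (adjusted p = 0.0511) and without CypD OE replicate 2 (adjusted p = 0.0567), and *Car12* (0.59), *Pnrc1* (0.29), *Pdk3* (0.23) and *Wsb1* (0.20) lost it without CypD OE replicate 2 (adjusted p = 0.161, 0.0854, 0.0909 and 0.0821), without CypD OE replicate 1 (adjusted p = 0.116, 0.139, 0.123 and 0.187) and without WT replicate 1 (adjusted p = 0.12, 0.0812, 0.139 and 0.193). *Car12* and *Pnrc1* lost it also without WT replicate 2 (adjusted p = 0.139 and 0.13).

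The 15 HIF targets that were lower in CypD OE than in WT ranged from -0.17 (*Tfrc*) to -0.85 (*Insig2*), and 12 to 13 were lower when any 1 library was left out. *Insig2*, which holds back sterol synthesis, gave 42.2 and 52.9 TPM in WT, 25.4 and 26.3 TPM in CypD OE, and 71.8 and 83.6 TPM in Control, a fall from WT of -0.85 (adjusted p = 0.00188). *Ndrg1*, a stress gene linked to differentiation, gave 33.3 and 33.3 TPM in WT, 19.6 and 19.5 TPM in CypD OE, and 47.1 and 48.6 TPM in Control, a fall of -0.73 (adjusted p = 0.000211). *Plin2*, the coat protein of lipid droplets, fell by 0.59 on the log2 scale (adjusted p = 0.00237), and *Hmox1*, the heme-degrading enzyme, fell by 0.48 (adjusted p = 0.000597). In each of these 4 genes both CypD OE libraries were below both WT libraries and both Control libraries were above them. *Mif*, the secreted macrophage migration inhibitory factor, gave 884 and 844 TPM in WT, 730 and 724 TPM in CypD OE, and 1595 and 1664 TPM in Control.

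Another 15 HIF targets did not reach 1 TPM in at least 2 of the 4 libraries and were not tested. *Adm*, the vasodilator peptide adrenomedullin, was at 1.24 and 0.16 TPM in WT, 0.14 and 0.53 TPM in CypD OE, and 20.6 and 16.7 TPM in Control. *Loxl2*, a lysyl oxidase of the matrix, was at 0.70 and 0.59 TPM in WT, 0.52 and 0.34 TPM in CypD OE, and 29.3 and 31.3 TPM in Control. Both genes were far below the Control level in WT and in CypD OE alike. The other 13 reached at most 1.65 TPM in the 6 libraries of these groups, and 7 of them were listed at 0 in all 6.

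**Figure D3:**
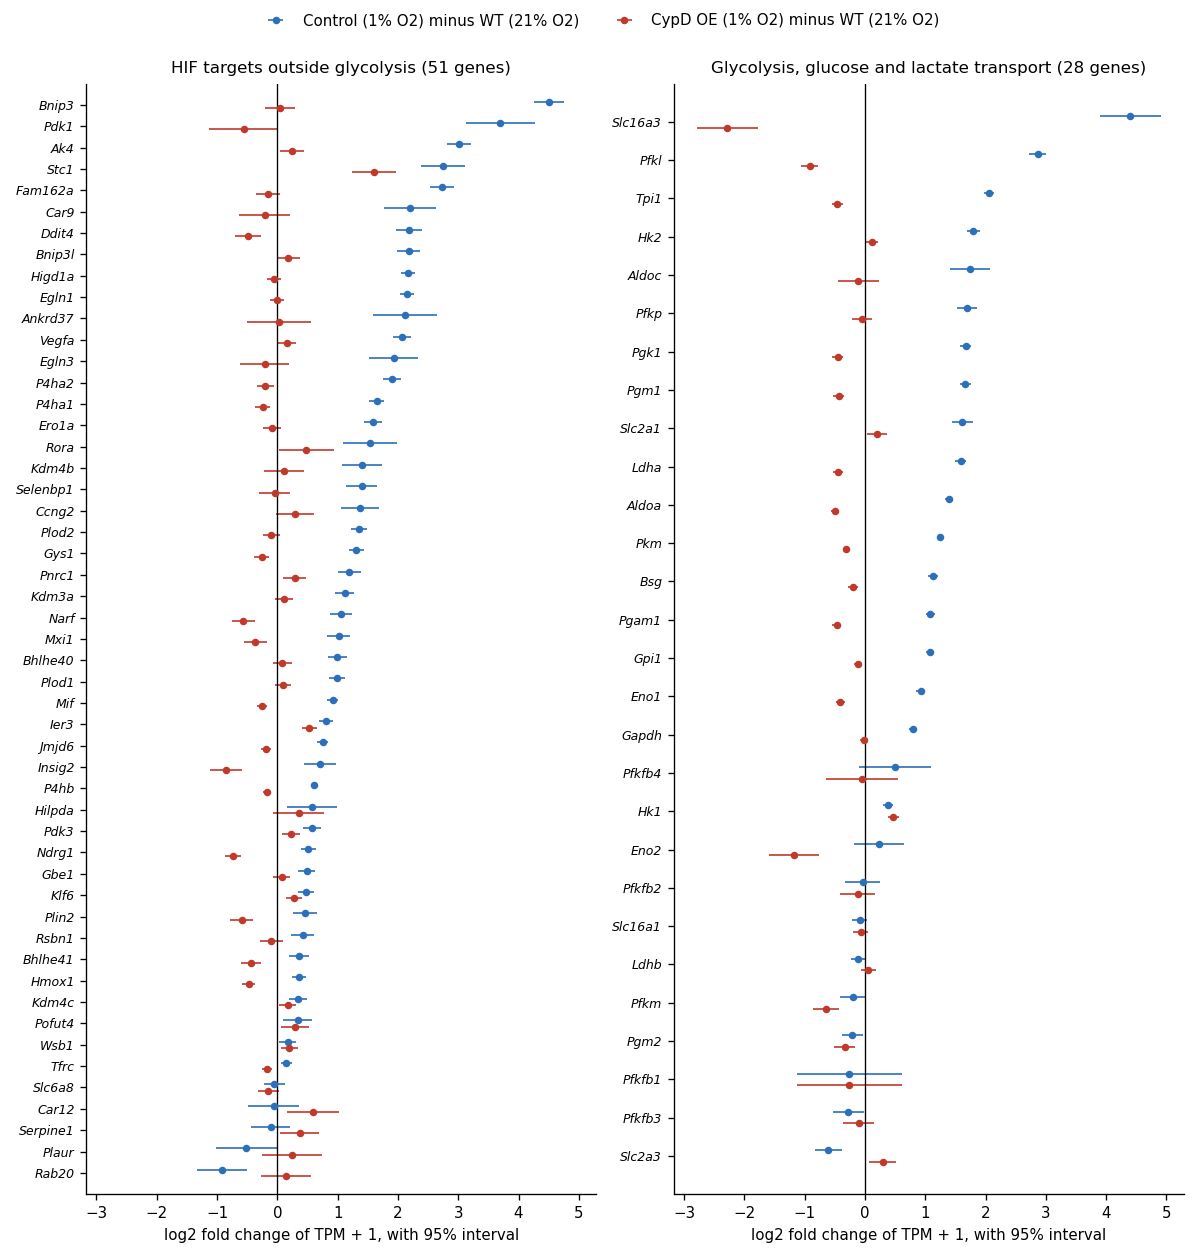
The log2 fold change of TPM + 1 with its 95% interval (x axis) is shown for 51 HIF targets outside glycolysis and 28 genes of glycolysis and glucose or lactate transport (y axis), ordered by their Control value, for CypD OE minus WT (red) and Control minus WT (blue). The red points have medians of -0.01 and -0.23, with *Stc1* highest at 1.60 and *Slc16a3* lowest at -2.28, while the blue points have medians of 1.01 and 1.08.

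Among genes of glycolysis and of glucose or lactate transport, more were lower than higher in CypD OE against WT. Of 28 such genes, all tested, 1 was higher (3.57%) and 15 were lower (53.6%), with a median log2 fold change of -0.23. Over all tested genes 15.5% were higher and 15.2% lower, with a median of 0.01. In Control against WT 18 of the 28 were higher and 1 lower, with a median of 1.08. In CypD OE against Control 2 were higher and 19 lower, with a median of -1.37. The shares over all tested genes were 12.9% higher and 13.4% lower in the first comparison and 20.8% and 19.2% in the second. The count of 1 higher was 2 without WT replicate 2 and 2 without CypD OE replicate 2.

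*Slc16a3* encodes the lactate exporter MCT4 and had the largest difference of the list. It gave 7.89 and 7.90 TPM in WT, 0.42 and 1.36 TPM in CypD OE, and 177 and 197 TPM in Control. CypD OE was far below WT, by -2.28 on the log2 scale (95% interval -2.78 to -1.78, adjusted p = 0.000481), where Control was above WT by 4.40. *Pfkl*, the liver-type phosphofructokinase, gave 25.3 and 23.6 TPM in WT, 12.6 and 12.4 TPM in CypD OE, and 175 and 193 TPM in Control, and fell by 0.92 in CypD OE (adjusted p = 0.000162). *Eno2*, the neuronal enolase, fell by 1.18 (adjusted p = 0.00293), from 8.23 and 6.59 TPM in WT to 2.35 and 3.06 TPM in CypD OE, with 7.53 and 10.3 TPM in Control.

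The abundant enzymes of the pathway were also lower. *Aldoa* (aldolase) stood at 1266 and 1243 TPM in WT and 885 and 893 TPM in CypD OE, which was 70.9% of the WT mean (adjusted p = 9.28e-05), beside 3235 and 3388 TPM in Control. *Tpi1*, *Pgk1*, *Ldha* and *Pgam1*, which encode triosephosphate isomerase, phosphoglycerate kinase, lactate dehydrogenase A and phosphoglycerate mutase, were at 72.3% to 73.3% of the WT mean, and *Pkm* (pyruvate kinase) at 80.0%. In all 6 genes the CypD OE libraries were below WT and the Control libraries above it. *Gapdh* did not differ from WT in CypD OE by the test, at 4648 and 4515 TPM in WT and 4508 and 4527 TPM in CypD OE (log2 fold change -0.02, 95% interval -0.08 to 0.04, adjusted p = 0.617).

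Genes for glucose uptake and the hexokinases were not lower in CypD OE. *Slc2a1*, the glucose transporter GLUT1, gave 22.1 and 25.0 TPM in WT, 28.3 and 26.0 TPM in CypD OE, and 75.6 and 72.4 TPM in Control, and its difference between CypD OE and WT of 0.20 did not pass the test (adjusted p = 0.0796). *Hk2*, the hypoxia-responsive hexokinase, gave 39.0 and 41.8 TPM in WT, 43.4 and 44.1 TPM in CypD OE, and 143 and 143 TPM in Control (CypD OE minus WT 0.11, 95% interval 0.01 to 0.22, adjusted p = 0.1). *Hk1*, the widely expressed hexokinase, was the 1 member called higher, at 62.8 and 60.4 TPM in WT, 85.8 and 86.1 TPM in CypD OE, and 80.9 and 80.8 TPM in Control. Its rise over WT was 0.47 (SE 0.04, adjusted p = 0.000249), and CypD OE did not differ from Control by the test (adjusted p = 0.1).

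The oxygen sensing machinery was covered by 15 tested genes for HIF subunits, hydroxylases and the VHL complex. In CypD OE 1 was higher than in WT (6.67%) and 4 were lower (26.7%), beside 15.5% and 15.2% over all tested genes. The other 10 were not called, and neither were 8708 of all 12556 tested genes. *Hif1a* gave 139 and 152 TPM in WT, 98.3 and 98.9 TPM in CypD OE, and 138 and 135 TPM in Control, and fell by 0.55 on the log2 scale against WT (95% interval -0.67 to -0.43, adjusted p = 0.000445). *Eloc*, a subunit of the VHL ligase, fell by 0.46, *Cited2*, an inhibitor of HIF1α that competes for its coactivators, fell by 0.45, and *Rbx1*, the RING subunit of the ligase, fell by 0.27. *Vhl* rose by 0.40 (adjusted p = 0.0151). *Rbx1* was not called without WT replicate 1, CypD OE replicate 1 or CypD OE replicate 2 (adjusted p = 0.117, 0.105 and 0.112). *Vhl* was not called in any fit that left out 1 of the 4 libraries (adjusted p = 0.0562 and 0.0657 without WT replicates 1 and 2, 0.0712 and 0.0622 without CypD OE replicates 1 and 2). *Epas1*, which encodes HIF2α, did not differ by the test (0.14, 95% interval -0.21 to 0.48), and neither did *Arnt* (-0.08, 95% interval -0.26 to 0.09).

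Hypoxia also changes the respiratory chain by exchanging subunits and by blocking entry of pyruvate. *Pdk1*, the kinase that inactivates pyruvate dehydrogenase, gave 7.35 and 7.26 TPM in WT, 6.60 and 3.19 TPM in CypD OE, and 101 and 113 TPM in Control. It was below WT in both CypD OE libraries, by -0.56 (95% interval -1.13 to 0.01), without passing the test (adjusted p = 0.125), and the 2 CypD OE libraries differed more from each other than those of WT. *Higd1a*, an inducible factor of the respiratory chain, gave 52.3 and 51.2 TPM in WT, 51.5 and 47.8 TPM in CypD OE, and 231 and 243 TPM in Control. Of the 9 tested genes listed for this switch 3 were higher (33.3%) and 0 lower in CypD OE than in WT by limma. Over all tested genes 15.5% were higher and 15.2% lower. The 3 were *Higd2a*, *Pdp1* and *Ndufa4*, at 0.44, 0.43 and 0.26. In Control against WT *Higd2a* was higher too (0.38), and *Pdp1* and *Ndufa4* were not called by limma (adjusted p = 0.293 and 0.31). With the median of its 20 Mb window subtracted, as described below, *Higd2a* was not called in CypD OE against WT (0.10, adjusted p = 0.307). Without WT replicate 1 the count of 3 was 1, and without CypD OE replicate 1 there was 1 higher and 1 lower. *Ndufa4* was not called in these fits (adjusted p = 0.0526 and 0.0628), and *Pdp1* was not called without any 1 of the 4 libraries (adjusted p = 0.0669 to 0.0843).

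Mitochondrially encoded transcripts were higher in CypD OE and nuclear subunits of oxidative phosphorylation were partly lower. Of the 13 mitochondrially encoded protein genes 9 were higher than in WT (69.2%) and 0 lower by limma, with a median log2 fold change of 0.16. The shares over all tested genes were 15.5% higher and 15.2% lower. Their summed TPM was 11.0% and 11.1% of the total in WT, 12.8% and 13.5% in CypD OE, and 9.89% and 9.41% in Control. *mt-Cytb*, the cytochrome b subunit of complex III, gave 11543 and 12059 TPM in WT, 14414 and 15380 TPM in CypD OE, and 8670 and 8109 TPM in Control (CypD OE minus WT 0.34, adjusted p = 0.0022). *mt-Co2*, a catalytic subunit of cytochrome oxidase, rose by 0.51 (adjusted p = 0.00657). The count of 9 was 5 without WT replicate 1 and 5 without CypD OE replicate 2. Among 75 nuclear subunits 9 were higher and 27 lower (36.0%), with a median of -0.09, and 27 became 17 without WT replicate 1 and 15 without CypD OE replicate 2. *Atp5mc3*, a subunit of the ATP synthase ring, was at 624 and 585 TPM in WT and 420 and 389 TPM in CypD OE, a fall of -0.58 (adjusted p = 0.000316), while *Cox7c* of cytochrome oxidase rose from 354 and 332 TPM to 470 and 468 TPM (0.45, adjusted p = 0.000249).

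The largest differences are given for more abundant genes. Among protein-coding genes with at least 10 TPM in the higher group and no overlap of libraries, *Hapln1* had the largest rise. It encodes a link protein of the extracellular matrix and gave 6.56 and 6.64 TPM in WT, 106 and 104 TPM in CypD OE, and 4.90 and 4.60 TPM in Control (log2 fold change 3.80, SE 0.09, adjusted p = 3.89e-06). *Hpgds*, a prostaglandin D synthase, gave 10.4 and 8.35 TPM in WT and 80.7 and 77.1 TPM in CypD OE, with 10.6 and 12.2 TPM in Control. Both genes stood far above WT and Control in CypD OE. *Slc7a11*, the cystine and glutamate exchanger, gave 8.82 and 9.69 TPM in WT, 31.0 and 28.8 TPM in CypD OE, and 1.68 and 1.40 TPM in Control, so that CypD OE and Control lay on opposite sides of WT (1.59, adjusted p = 0.000119, and -2.01, adjusted p = 3.75e-05). The other genes with the largest rises were *Etv4*, *Fndc3c1*, *Etv5*, *Adam12*, *Lgals3bp*, *L1cam*, *Hook1*, *Mef2c*, *Sgk1*, *Tnnt2*, *Ccn2* and *Gja1*, with log2 fold changes of 1.34 to 2.12.

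*Mmp11*, a matrix metalloprotease, had the largest fall, from 43.2 and 44.2 TPM in WT to 0.58 and 0.47 TPM in CypD OE, with 39.9 and 42.1 TPM in Control (log2 fold change -4.88). *Rhox5*, a homeobox gene of the X chromosome, fell from 21.4 and 19.99 TPM to 0.25 and 0 TPM, and *Cyba*, the p22phox subunit of NADPH oxidase, had 10.2 and 11.2 TPM in WT and was listed at 0 in both CypD OE libraries. *Mgarp*, a mitochondrial protein described as responsive to HIF1α, gave 20.3 and 19.3 TPM in WT, 0.40 and 0.24 TPM in CypD OE, and 26.1 and 31.9 TPM in Control. These 4 genes passed the filter on low TPM through WT alone and had to differ, so their values are a description. In CypD OE they were at or near 0, whereas Control had at least 12.3 TPM of each. *Trpm1* and *Oca2*, the pigment cell channel and the melanosome transporter, fell to 6.86% and 6.01% of the WT mean. Further falls among the 15 largest were those of *Pla2g2e*, *Bfsp2*, *Mgst1*, *Cpeb1*, *Bdh1* and *Sytl2* (-1.91 to -2.82) and of the glutathione transferases *Gsta1*, *Gsta2* and *Gsta13*. The last 3 are close paralogs whose reads the authors' counting could divide between them, and *Gsta2* was not called without WT replicate 1 (adjusted p = 0.0661) or without WT replicate 2 (adjusted p = 0.0571).

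Immediate early genes and feedback regulators of growth factor signalling were higher in CypD OE as a group. The share called higher was 75.0%, beside 15.5% over all tested genes, of which 15.2% were called lower. Of 20 tested genes 15 were higher and 0 lower by limma, for a median log2 fold change of 0.42, and 9 were higher without CypD OE replicate 2. *Egr1*, a zinc finger factor induced by ERK signalling, gave 1.77 and 1.61 TPM in WT, 4.99 and 5.60 TPM in CypD OE, and 0.99 and 1.21 TPM in Control. *Spry4*, an inhibitor of receptor tyrosine kinase signalling, gave 3.60 and 3.64 TPM in WT, 9.69 and 9.30 TPM in CypD OE, and 2.31 and 1.70 TPM in Control. *Dusp6*, the phosphatase of ERK, gave 62.1 and 68.2 TPM in WT, 107 and 100.4 TPM in CypD OE, and 51.7 and 54.5 TPM in Control. All 3 were higher in CypD OE than in either other group, by 1.23, 1.18 and 0.67 over WT (adjusted p = 0.000962, 0.000831 and 0.000522). *Etv5*, an ETS factor that is a textbook target of the same pathway and was named above, gave 15.3 and 15 TPM in WT, 59.5 and 55.6 TPM in CypD OE, and 7.11 and 7.22 TPM in Control.

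Genes of the melanocyte lineage were largely lower in CypD OE and largely higher in Control. Of 26 tested genes 6 were higher and 18 lower than in WT (69.2%), with a median log2 fold change of -0.30. In Control against WT 21 were higher and 1 lower, with a median of 0.40. Among all tested genes 15.5% were higher and 15.2% lower in CypD OE, and 12.9% and 13.4% in Control. *Trpm1* gave 150.2 and 144.7 TPM in WT, 9.28 and 11.0 TPM in CypD OE, and 374 and 348 TPM in Control. *Mitf*, the lineage's master transcription factor, gave 277 and 281 TPM in WT and 203 and 190 TPM in CypD OE, a fall of -0.50 (adjusted p = 0.000379). *Kit*, the receptor for stem cell factor, fell by 1.06 on the log2 scale (adjusted p = 0.00148). *Tyr*, which encodes the first enzyme of melanin synthesis, went the other way, from 37.4 and 41.3 TPM in WT to 74.1 and 74.9 TPM in CypD OE and 74.2 and 75.6 TPM in Control (0.91, adjusted p = 0.000267), and *Erbb3*, a neuregulin receptor, rose by 1.24. The defining pigment genes *Dct*, *Tyrp1*, *Pmel* and *Mlana* ranged from 1511 to 7997 TPM over the 4 libraries, so the defining markers of the labelled melanoma line were present. Markers of other lineages were low. Summed TPM was 0 for 6 keratinocyte markers, 0.41 to 1.87 for 7 endothelial markers and 1.15 to 4.48 for 9 leukocyte markers across WT and CypD OE. The 9 fibroblast markers, which include collagens that melanoma cells can express, summed to 20.01 and 17.3 TPM in WT and 11.7 and 10.04 TPM in CypD OE, and their part in the differences was not tested.

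**Figure D4:**
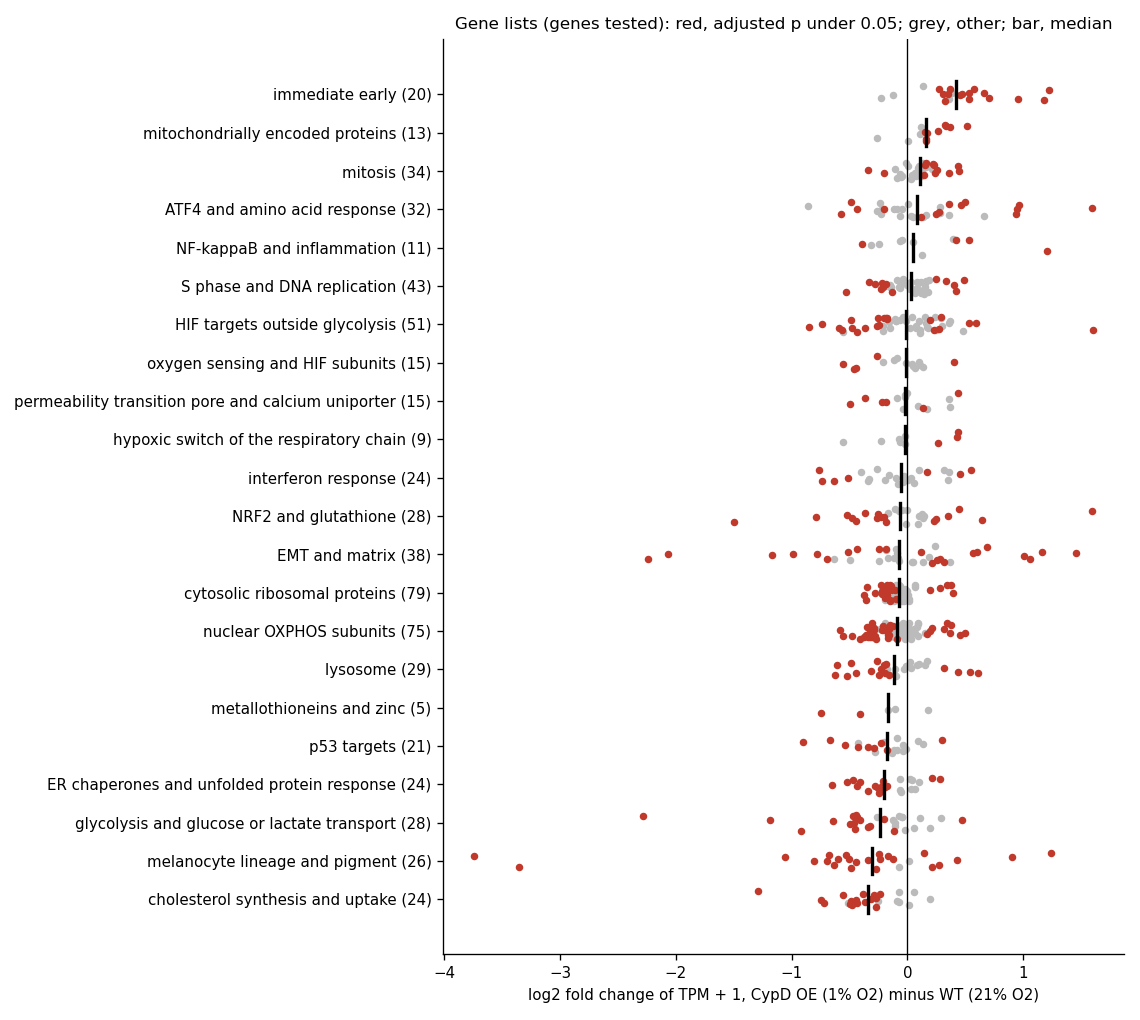
Each point is the log2 fold change of TPM + 1 in CypD OE minus WT (x axis) of a tested gene in 1 list (y axis, number of genes tested in brackets), in red at an adjusted p under 0.05, and bars mark medians. Medians run from -0.34 for cholesterol synthesis to 0.42 for immediate early genes, and the HIF target median is -0.01.

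Genes of epithelial-mesenchymal transition (EMT) and matrix went in both directions, with 12 of 38 tested genes higher (31.6%) and 10 lower (26.3%). The shares over all tested genes were 15.5% and 15.2%. *Snai2*, the EMT factor Slug, gave 4.44 and 4.37 TPM in WT, 11.6 and 10.7 TPM in CypD OE, and 5.50 and 5.99 TPM in Control (1.17, adjusted p = 0.000248). *Fn1* (fibronectin) gave 28.4 and 31.1 TPM in WT, 64.2 and 62.0 TPM in CypD OE, and 42.9 and 45.0 TPM in Control (1.06, adjusted p = 6.78e-05). Both rose, and so did *Ccn2*, a matricellular growth factor, by 1.46. *Tagln*, an actin-binding protein, fell from 7.79 and 8.15 TPM to 1.08 and 0.74 TPM (-2.24, limma adjusted p = 0.000116). *Spp1* (osteopontin) was at 4.68 and 2.96 TPM in WT, 0.07 and 0.20 TPM in CypD OE, and 33.5 and 31.5 TPM in Control. *Spp1* passed the filter on low TPM through WT alone and had to be lower, so its values are a description. *Col1a2*, also 1 of 3 tested fibroblast markers, was lower by -1.17 (adjusted p = 0.0167) and was not called without WT replicate 1 (adjusted p = 0.0918) or without CypD OE replicate 2 (adjusted p = 0.0886). *Vim* (vimentin) did not differ by the test (-0.07, adjusted p = 0.0967).

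Cholesterol synthesis and uptake genes were lower in CypD OE. Of 24 genes 0 were higher by limma and 16 were lower (66.7%), with a median of -0.34. Among all tested genes 15.5% were higher and 15.2% lower in CypD OE than in WT, and 12.9% and 13.4% in Control than in WT. *Sqle*, squalene epoxidase, gave 85.5 and 82.9 TPM in WT, 51.2 and 48.4 TPM in CypD OE, and 80.5 and 80.6 TPM in Control (-0.75, adjusted p = 0.000113). *Insig1*, *Fdps* and *Hsd17b7* fell by 0.56, 0.50 and 0.72 on the log2 scale. Chaperones of the endoplasmic reticulum and genes of the unfolded protein response gave 14 of 24 lower and 2 higher, with a median of -0.20, beside 22 higher and 1 lower in Control against WT. The 2 higher became 0 without WT replicate 1 or CypD OE replicate 2 and 1 without WT replicate 2 or CypD OE replicate 1. *Hspa5* (BiP), the main chaperone of that compartment, gave 1084 and 1088 TPM in WT, 865 and 852 TPM in CypD OE, and 1301 and 1317 TPM in Control (-0.34, adjusted p = 0.000408). *Herpud1*, a component of protein degradation there, had the largest fall of the list, at -0.65.

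Genes of the amino acid response under ATF4 gave 10 of 32 higher (31.2%) and 4 lower (12.5%), with a median of 0.08. *Asns* (asparagine synthetase) gave 95.4 and 91.4 TPM in WT, 181 and 185 TPM in CypD OE, and 70.6 and 77.1 TPM in Control, a rise of 0.96 over WT (adjusted p = 7.8e-05). Genes of the NRF2 and glutathione response gave 6 of 28 higher (21.4%) and 11 lower (39.3%). *Gstp1*, a glutathione transferase, fell from 849 and 822 TPM to 480 and 488 TPM (-0.79, adjusted p = 3.84e-05). Lysosomal genes gave 4 of 29 higher (13.8%) and 13 lower (44.8%), with *Ctsz* (cathepsin Z) at -0.61. Among 34 genes of mitosis 10 were higher (29.4%) and 2 lower (5.88%), the proliferation marker *Mki67* by 0.36, and 6 were higher without WT replicate 1 and 6 without CypD OE replicate 1. S phase genes gave 5 of 43 higher (11.6%) and 8 lower (18.6%), near the 15.5% and 15.2% over all tested genes, with 3 lower without WT replicate 1 and 4 without WT replicate 2, and 3 lower without either CypD OE replicate.

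Differences from WT in CypD OE were also uneven across chromosomes. The median log2 fold change was 0.27 over 456 tested genes of chromosome 13 and 0.24 over 658 of chromosome 6, and it was -0.18 over 470 genes of chromosome 12 and -0.18 over 477 of chromosome 15. On chromosome 13, 199 genes were higher (43.6%) and 12 lower (2.63%), and on chromosome 12, 19 were higher (4.04%) and 165 lower (35.1%). Each CypD OE library showed this by itself, with chromosome 13 medians of 0.29 and 0.27 and chromosome 12 medians of -0.15 and -0.21 against the WT mean. In Control against WT the medians were 0.00 on chromosome 13, 0.02 on chromosome 6, 0.01 on chromosome 12 and 0.01 on chromosome 15.

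Some shifts covered part of a chromosome. In windows of 20 Mb with at least 20 tested genes, the CypD OE medians on chromosome 8 were 0.24 to 0.31 from 0 to 80 Mb and -0.15 from 80 to 100 Mb. On chromosome 2 the median was -0.30 from 60 to 80 Mb and -0.40 from 80 to 100 Mb, where 44 of 74 tested genes were lower, against 0.05 in the next window. On chromosome 3 it was -0.27 and -0.23 from 120 to 160 Mb. On chromosome 13 it was -0.02 in the first window and 0.33 to 0.35 from 40 to 120 Mb. Over 138 windows the medians ran from -0.40 to 0.35 in CypD OE against WT, with 34 beyond 0.15 in either direction, and from -0.08 to 0.15 in Control against WT, with 1 beyond 0.15. DNA copy number was not measured in these libraries. *Hapln1* and *Mef2c* lie on chromosome 13 and *Hpgds* on chromosome 6.

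**Figure D5:**
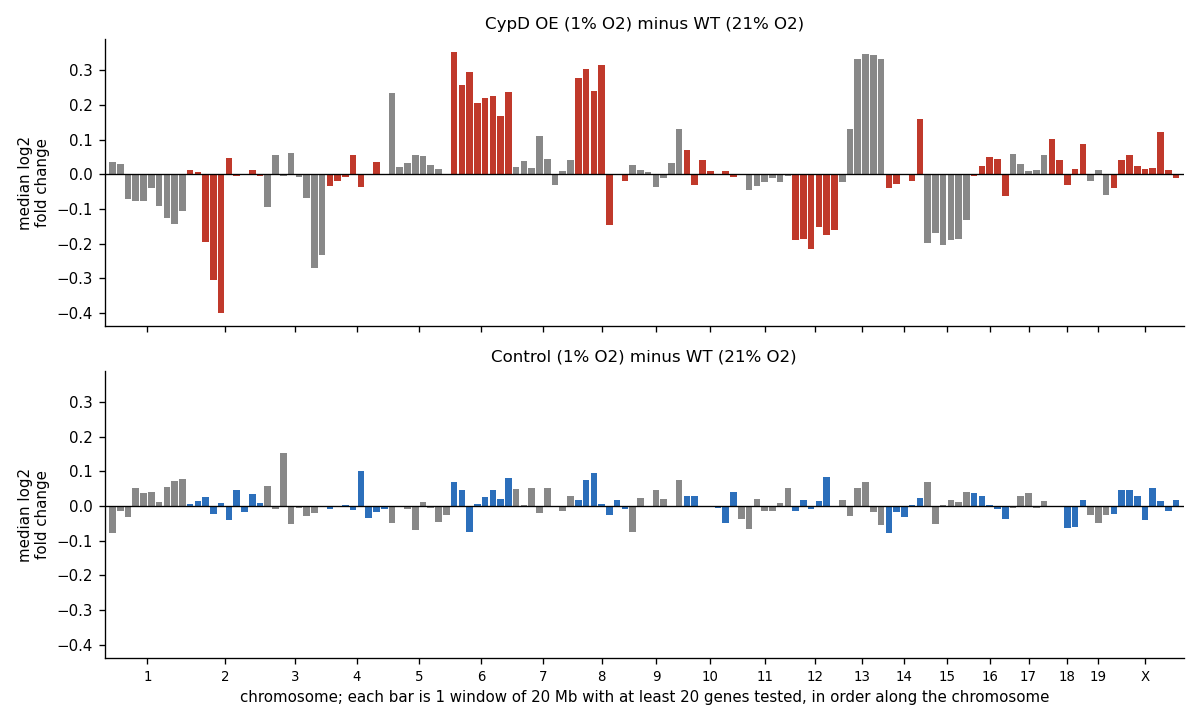
Median log2 fold change of TPM + 1 (y axis) in 138 windows of 20 Mb with at least 20 tested genes, in order along chromosomes 1 to 19 and X (x axis, colours alternate by chromosome), is shown for CypD OE minus WT (upper panel) and Control minus WT (lower panel). The upper panel spans -0.40 to 0.35 with adjoining windows beyond 0.15 on chromosomes 2, 3, 6, 8, 12, 13 and 15, and the lower panel spans -0.08 to 0.15.

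When the median of its window was subtracted from each gene, an adjustment chosen after seeing the data, 1458 genes were higher and 1601 lower in CypD OE than in WT. The HIF targets outside glycolysis then gave 7 higher and 15 lower, and glycolysis and transport genes 1 higher and 17 lower. *Ndufa4*, on chromosome 6, turned to -0.09 (adjusted p = 0.265). *Higd2a* (0.10, adjusted p = 0.307), *Vhl* (0.18, adjusted p = 0.195) and *Rbx1* (-0.08, adjusted p = 0.464) were no longer called. The mitochondrially encoded genes have no such window, and no value after this adjustment is given for them.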

How the data were processed

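RNA was measured in 8 B16F10 libraries, 2 in each of 4 groups. Per the study's methods, ribosomal RNA was depleted (KAPA RNA HyperPrep with RiboErase) and reads were paired-end. The submitters' processing notes name cutadapt 3.4, STAR 2.7.8a, RSEM 1.3.1, DESeq2 1.26.0 and the build GRCm39. The authors deposited TPM per gene, which RSEM computes after sharing reads that map to several genes, and which makes each value relative to all other transcripts of its library. TPM keeps no read count, so depth was not derived and the limits of low values are unknown. Between 17942 and 19692 genes were above 0 per library. Of 55414 gene identifiers 54749 (98.8%) matched the GENCODE annotation used for positions and biotypes.

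Genes with at least 1 TPM in 2 of the 4 libraries of WT and CypD OE were kept. log2(TPM + 1) was fitted with limma 3.58.1 in R 4.3.3, with 1 mean for each of the 4 groups, all 8 libraries sharing 1 estimate of spread, and moderated variances with a trend on mean level. p-values were two-sided and adjusted by Benjamini-Hochberg over all genes tested, a gene was called at an adjusted p under 0.05, and intervals are 95%. A fold change on the log2(TPM + 1) scale understates the change of genes with low values. The script was tested on simulated data. Tables were handled with Python 3.11.15 and pandas 2.3.3.

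The members and gene lists were chosen with earlier results of these data known. Genes were named by rule: *Ppif*, members of the 4 hypoxia lists, the 15 largest rises and 15 largest falls among protein-coding called genes without overlap and with a mean of at least 10 TPM in the higher group, and the 4 called members with the largest differences in each other list. Other members of a list were named after their values were seen, as well-known genes of that list. The alternatives were other pseudocounts, filters, a median-of-ratios rescaling, a fit of 4 libraries, no trend, the replicate number as a block, each library left out in turn, and subtraction of window medians.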

Additional observations from a re-analysis of the deposited data

Results flagged for a closer look

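CypD OE and Control were both kept at 1% O2 and were both compared with WT, and the difference of those 2 comparisons is CypD OE against Control, which limma tested directly. Of 51 HIF targets outside glycolysis, 42 were lower and 4 higher in CypD OE than in Control at an adjusted p under 0.05. Of 28 genes of glycolysis and glucose or lactate transport, 19 were lower and 2 higher. Among all tested genes 19.2% were lower and 20.8% higher in CypD OE than in Control. *Bnip3* stood at 13.6 and 12.5 TPM in CypD OE beside 311 and 307 TPM in Control, and *Slc16a3* at 0.42 and 1.36 TPM beside 177 and 197 TPM. The empty vector and the CypD plasmid, the clones and any difference in exposure cannot be told apart in this design.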

How the results depend on the processing

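Leaving out 1 library at a time gave 1133 to 1361 genes higher and 1202 to 1357 lower in CypD OE than in WT, 2 to 6 higher and 12 to 13 lower HIF targets outside glycolysis, and 1 to 2 higher and 13 to 14 lower glycolysis and transport genes. The 7 HIF targets called higher became 3 with no filter on low TPM and 4 in a fit of the 4 libraries only, and the 1 glycolysis gene called higher became 2 with a filter of 5 TPM. With window medians subtracted, an alternative chosen after seeing the data that centres the mitochondrially encoded genes on their own median, the *Ppif* difference turned from -0.0156 to 0.0112 (adjusted p = 0.94) and *Ndufa4* from 0.262 to -0.089. A median-of-ratios rescaling gave 1770 genes higher and 2211 lower and 37 instead of 23 ribosomal protein genes lower. Over 142 called genes and 1833 alternative values, 1704 kept direction and call, 128 lost the call and 1 turned sign. The cause was not tested. TPM held no depth, so limits for genes near 0 could not be set.

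The replicate numbers did not pair the libraries. Deviations from the group means correlated at -0.01 between CypD OE and WT, 0.01 between CypD OE and Control and -0.02 between WT and Control. A fit with the replicate block called 1772 genes higher and 1746 lower, HIF targets gave 3 higher and 15 lower, glycolysis and transport genes 1 higher and 15 lower, and the 2 glycolysis genes higher in CypD OE than in Control became 1.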

Other observations

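Of 21 tested p53 targets 8 were lower (38.1%) and 1 higher (4.76%) in CypD OE than in WT by limma, and 4 to 5 were lower when 1 library was left out. *Ccng1* (cyclin G1) gave 242 and 243 TPM in WT, 168 and 166 TPM in CypD OE, and 138 and 139 TPM in Control (CypD OE minus WT -0.53, adjusted p = 6.78e-05). *Cdkn1a*, the cell cycle inhibitor p21, gave 165 and 154 TPM in WT, 117 and 120.4 TPM in CypD OE, and 97.1 and 96.6 TPM in Control. Both genes were below WT in both groups kept at 1% O2.

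Metallothionein and zinc genes gave 2 of 5 lower and 0 higher by limma. *Mt2*, a metal-binding protein, fell from 253 and 221 TPM to 143 and 138 TPM (-0.75, adjusted p = 0.00111). Interferon genes gave 3 of 24 higher (12.5%) and 4 lower (16.7%), and 1 was higher without WT replicate 1, CypD OE replicate 1 or CypD OE replicate 2. The interferon shares of 12.5% and 16.7% were near the 15.5% and 15.2% over all tested genes. *Ifitm3*, an antiviral membrane protein, fell by 0.64 on the log2 scale (adjusted p = 0.00411) and *Irf1*, an interferon regulatory factor, rose by 0.55 (adjusted p = 0.00405). NF-κB and inflammation genes gave 3 of 11 higher (27.3%) and 1 lower (9.09%), or 2 lower without WT replicate 2, with *Rela*, a subunit of NF-κB, at 0.42 and *Nfkb1*, another subunit, at -0.39. With window medians subtracted *Nfkb1* was at -0.12 and not called (adjusted p = 0.105).

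Genes of the permeability transition pore and the mitochondrial calcium uniporter, the setting in which CypD acts, gave 2 of 15 higher (13.3%) and 4 lower (26.7%), beside 15.5% and 15.2% over all tested genes. *Micu2*, a gatekeeper of the uniporter, fell from 29.5 and 27.9 TPM to 21.4 and 22.8 TPM (-0.36, adjusted p = 0.00701). The 2 higher became 0 without WT replicate 2 or CypD OE replicate 1 and 1 without CypD OE replicate 2, and the 4 lower became 2 without WT replicate 1 or CypD OE replicate 2. Cytosolic ribosomal protein genes gave 5 of 79 higher (6.33%) and 23 lower (29.1%), and 13 lower without WT replicate 1 or CypD OE replicate 2.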
